A study of Mus musculus with 4 samples.

Results

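Plagl1 was the only gene described here, 1 of 11229 genes with at least 1 listed SNP in the allele counts of this series. Its members were all SNPs assigned to Plagl1 by the authors, exonic and intronic, 201 of 311375 SNPs in the 4 count files. Rows that listed the same base for both strains were set apart, since they cannot separate the parents. RNA came from the gonadal fat pad of F1 mice of reciprocal crosses between C57BL/6J (B) and DBA/2J (D), fed chow and aged 8 weeks by the labels, although the methods of the study give an older age. The cross is written with the mother first, so the father was D in the BxD pools and B in the DxB pools. The 4 pools were BxD female (3 animals), BxD male (3 animals), DxB female (2 animals) and DxB male (3 animals), and the labels name no mutation or treatment in any of them. Each pool was 1 library, so a pool of animals was the only replicate unit and the spread between animals was not measured.

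Plagl1 (also called Zac1) encodes a zinc finger transcription factor that restrains cell division, and it is one of the known imprinted genes. An imprinted gene is transcribed mainly from the copy of 1 parent. At Plagl1 the maternal promoter carries DNA methylation laid down in the egg, and in most tissues the paternal copy alone is transcribed. Increased dosage of the human gene is linked to transient neonatal diabetes. In a reciprocal cross the 2 strains exchange their parental roles, so reads of a paternally expressed gene carry D bases when the father is D and B bases when the father is B.

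For 2 samples the label and the file name gave different crosses and sexes, and the file name was used. On the X chromosome, males of a B mother can carry only B alleles. The pool with BxD male in its file name (labelled DxB female) had 10543 B and 132 D exonic reads there, 1.24% D. The pool with DxB female in its file name (labelled BxD male) had both alleles, with 36.7% D reads. The other female pool had 38.9% D reads, and the DxB male pool had 72.8%, with at least 90% D in 30 and at most 10% D in 9 of its 43 X-linked genes that had at least 20 reads. The 4 pools held between 4331417 and 5736152 allele-specific reads, of which 3388006 to 4310141 exonic and 419888 to 696517 intronic reads were counted. Of the adipocyte markers fixed for the tissue (Adipoq, Fabp4, Plin1, Lipe, Cidec, Lep and Pparg) 2 of 7, Cidec and Lep, had exonic SNPs with reads, and together they had 4710 to 9127 RPM (reads per 1000000 counted exonic reads) in the 4 pools. The other 5 could not be checked with SNPs. Reads of the macrophage marker Cd68 were 232 to 487 RPM, of the endothelial marker Pecam1 36.0 to 51.3, and of the fibroblast marker Pdgfra 340.1 to 761.2.

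Plagl1 lies on the plus strand of chromosome 10 in mm9, at chr10:12810497-12851500 (ENSMUSG00000019817.11). The annotated transcript used here, Plagl1-001, has 6 exons, and its start codon is in exon 5, so that exons 1 to 4 are untranslated. Coding sequence spans chr10:12844823-12848907 and the remainder of exon 6 is the long 3′ UTR. The authors listed 21 exonic SNPs and 180 intronic ones, of which 2 and 1 listed the same base for both strains. That left 19 informative exonic SNPs, all in exons 5 and 6, and 179 informative intronic SNPs. After keeping the first of SNPs within 18 bp, 16 exonic and 146 intronic SNPs were counted. The B base equalled the mm9 base at every one of the 201 SNPs.

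The sequences below are plus-strand mm9 sequence around the SNPs on which the results turn, 29 bases each, with the SNP base in capitals at position 15 from the 5′ end. They are the most-read SNP of the introns, of intron 4, of the 5′ UTR and of the coding sequence.
Plagl1 SNP 12833494: gttaccaggcaagtTagcctacttacaag
Plagl1 SNP 12844546: gcccatctgaacctCttaaaagaatatac
Plagl1 SNP 12844715: ggctgtagcgctgcCtttctggagtcagg
Plagl1 SNP 12847140: gccctgcactcggcGagcaatggcgatct
Written as the B base, the position from the 5′ end and the D base, these SNPs were T15A (intron 3, chr10:12833480-12833508), C15G (intron 4, chr10:12844532-12844560), C15T (5′ UTR in exon 5, chr10:12844701-12844729) and G15A (synonymous, exon 6, chr10:12847126-12847154).

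The next SNPs, all in the 3′ UTR, are shown because their reads did not follow the father in the BxD pools, and the last because it listed C for both strains.
Plagl1 SNP 12850050: agactctgtatttcCttcttgagactgta
Plagl1 SNP 12850904: atctcctgacctttGaagacactgcattt
Plagl1 SNP 12850954: agcacatatctcccGacttttgaagacac
Plagl1 SNP 12850953: cagcacatatctccCgacttttgaagaca
These were C15A (chr10:12850036-12850064), G15A (chr10:12850890-12850918) and G15A (chr10:12850940-12850968), and the window of the same-base SNP was chr10:12850939-12850967.

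The paternal allele of Plagl1 gave most of the reads in every pool, in exons and in introns. At the counted exonic SNPs the BxD female pool had 493 maternal and 2309 paternal reads. The BxD male pool had 611 maternal and 2692 paternal reads. The DxB female pool had 40 and 1136, and the DxB male pool 2 and 648. The paternal share was thus 82.4% (95% Wilson interval 81.0 to 83.8%) and 81.5% (80.1 to 82.8%) in the BxD pools, against 96.6% (95.4 to 97.5%) and 99.7% (98.9 to 99.9%) in the DxB pools. Over the 4 pools the share was 90.05% ± 9.44 (SD, n = 4). These intervals cover counting error within a pool only, and they treat reads as independent. They may be too narrow, because both mates of a pair entered the counts and PCR copies were, as far as stated, not removed.

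The intronic reads were more evenly paternal. The 2 BxD pools had 19 maternal with 1519 paternal reads (female) and 74 with 1535 (male). The DxB female pool had 15 and 510 and the DxB male pool 1 and 355. Shares were 98.8% (98.1 to 99.2%), 95.4% (94.3 to 96.3%), 97.1% (95.3 to 98.3%) and 99.7% (98.4 to 99.9%) in that order, with a mean of 97.8% ± 1.90 (SD, n = 4). The paternal allele was the higher one in 4 of 4 pools for both kinds of SNP, and in the exact two-sided sign-flip test over pools 2 of the 16 sign assignments were as extreme for each, the fewest possible with 4 pools.

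**Figure D1:**
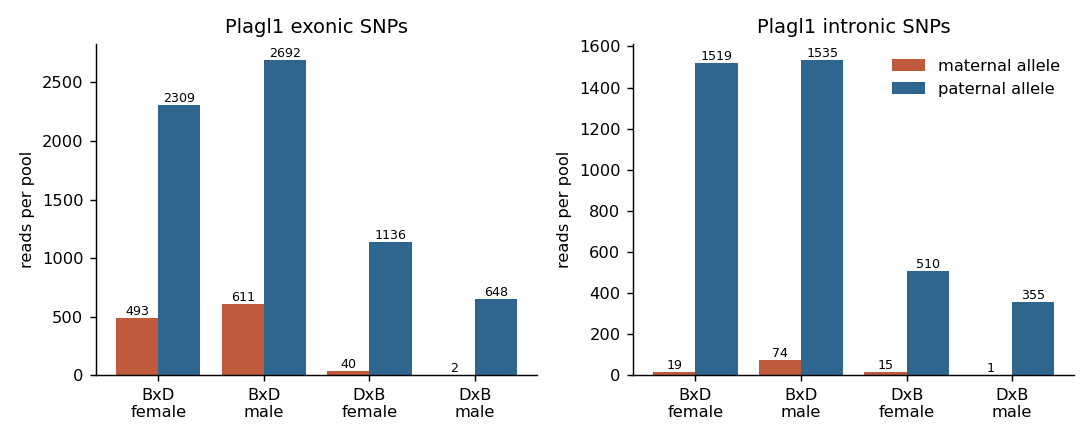
Reads of the maternal and the paternal Plagl1 allele in each of the 4 pools (x axis, named by cross and sex), at the 16 counted exonic SNPs (left) and the 146 counted intronic SNPs (right). Bars are read counts on a linear axis from 0 with the count printed above each. The 493 and 611 maternal exonic reads of the BxD pools stand out against 40 and 2 in the DxB pools.

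The exonic and intronic shares differed mainly in the BxD pools. The intronic share exceeded the exonic one by 7.71 percentage points on average (SD 8.63, n = 4, higher in 4 of 4 pools, 2 of 16 assignments as extreme in the exact sign-flip test). The exonic share was 16.2 points higher in the DxB than in the BxD pools, at 98.1% ± 2.19 against 82.0% ± 0.639 (SD, n = 2 each), with an exact permutation p = 0.333, the smallest that 2 pools against 2 allow. Males exceeded females by 1.10 points, less than the spread within either sex (SD 12.9 and 10.04, exact permutation p = 1). The intronic minus exonic difference was 4.82 points without the BxD female pool. With SNPs more than 50 bp apart it was 1.71 points, and the DxB minus BxD difference was 4.67. That spacing left out SNPs 12850904 and 12850954. Without 3 SNPs chosen for their low paternal share, these among them, both differences changed sign, to -0.870 and -1.26 points.

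Those 3 SNPs carried nearly all maternal exonic reads of the BxD pools. They were found, after the values were seen, as the exonic SNPs with at least 100 reads in the BxD pools and a paternal share under 90% in both. At SNP 12850050 the BxD female pool had 129 B and 5 D reads and the BxD male pool 153 and 2, although the father was D. At the same SNP the DxB pools had 52 B with 1 D read and 29 B with 0 D reads, so B was the common base whichever parent had carried it. SNP 12850954 had 208 B and 26 D reads in BxD females, 256 and 25 in BxD males, 91 and 2 in DxB females and 40 and 0 in DxB males. SNP 12850904 was between, with 142 B and 119 D reads in BxD females, 181 and 188 in BxD males, 42 and 1 in DxB females and 23 and 0 in DxB males.

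The 3 SNPs held 479 of 505 maternal reads (94.8%) over all informative exonic SNPs in BxD females and 590 of 625 (94.4%) in BxD males, but 4 of 43 in DxB females and 0 of 2 in DxB males. At the other exonic SNPs the paternal share was 98.9% (98.3 to 99.2%) in BxD females, 98.7% (98.2 to 99.1%) in BxD males, 96.4% (95.2 to 97.4%) in DxB females and 99.7% (98.8 to 99.9%) in DxB males. Without them the BxD pools lay between the 2 DxB pools. Total reads at SNP 12850050 were 3.52 times as many in the BxD as in the DxB pools, and at SNP 12850954 3.87 times, within the range of 1.80 to 4.57 (median 2.85) of the 12 other exonic SNPs with at least 100 reads. SNP 12850904 had 9.55 times as many, outside that range.

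**Figure D2:**
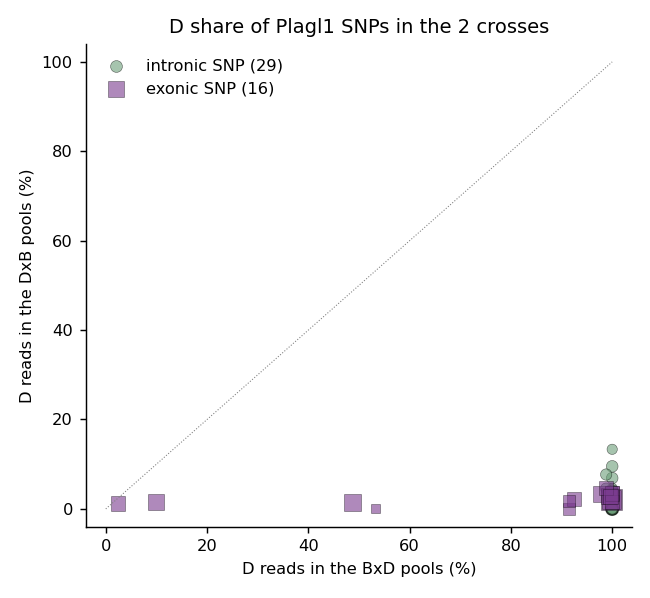
Share of D reads at each informative Plagl1 SNP in the BxD pools (x axis, %) and in the DxB pools (y axis, %), for the SNPs with at least 10 reads in each cross (16 exonic squares, 29 intronic circles, area growing with reads). The dotted line marks equal shares. Most SNPs sit near 100% and 0%, where reads follow the father, and the 3 large exonic squares at 2.42%, 9.90% and 48.7% D in the BxD pools and a small one at 53.3% do not.

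The part of exon 6 that holds these 3 SNPs is made of near-copies of the same sequence. For each SNP of exon 6, the 29 bases around it in mm9 were compared without gaps with every other 29-base stretch of the plus strand of the exon that did not overlap it. For 14 of 20 SNPs, from 12850050 to 12851322, the best other stretch matched at 89.7 to 100% of bases. For the other 6 the best match was 55.2 to 58.6%. At position 15 the best other stretch had the B base for SNPs 12850904 and 12850954, but the D base for SNP 12850050. The window of SNP 12850904 matched 28 of 29 bases at chr10:12850252-12850280, 638 bp away, where mm9 reads as follows.
Plagl1 near-copy: atctcctgacctttgaagaccctgcattt
The repeated stretch also contained both same-base SNPs and 9 further informative SNPs. These further SNPs were uneven in the BxD pools. The paternal share was 98.8% at SNP 12850188, 99.7% at SNP 12850986 and 100% at SNP 12851287, but 91.4% at SNP 12850243, 92.4% at SNP 12850992 and 91.5% at SNP 12851000. It was 53.3% of 15 reads at SNP 12851322, and SNPs 12850861 and 12851009 had 1 maternal and 0 paternal reads each. At SNP 12850986 the reads were 1 B and 126 D in BxD females, 0 and 171 in BxD males, 67 and 3 in DxB females and 39 and 0 in DxB males. Over the 12 informative SNPs of the stretch the paternal share was 53.6% and 54.8% in the female and male BxD pools and 97.1% and 100% in the DxB pools. At the 7 informative exonic SNPs before it, in exons 5 and 6, the shares were 99.7%, 99.6%, 96.4% and 99.6%. The part of the repeats in the B reads was not tested.

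The rows set apart gave equal reads for both alleles in each pool. SNP 12850953, which is next to SNP 12850954, listed 229 reads for each allele in BxD females, 267 in BxD males, 99 in DxB females and 45 in DxB males. SNP 12850880 listed 21, 21, 6 and 5 for each allele. Such rows had to show 50% for either parent, and kept in place of being removed they lowered the mean exonic paternal share to 86.6%.

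Among the exonic parts, coding SNPs gave the highest paternal shares in the BxD pools, but not in the DxB pools. At the most-read one, SNP 12847140, BxD females had 1 B and 725 D reads and BxD males 1 and 733. DxB females had 323 B and 10 D reads and DxB males 188 and 1, so nearly all reads followed the father in both crosses. Over the 4 coding SNPs the paternal share was 99.8% (99.4 to 99.9%) in BxD females, 99.8% (99.5 to 99.9%) in BxD males, 96.6% (94.9 to 97.8%) in DxB females and 99.5% (98.1 to 99.9%) in DxB males. At the only SNP of exon 5, in the 5′ UTR, B and D reads were 3 and 165, 5 and 194, 69 and 4, and 49 and 0 in the same order of pools. The paternal share there was 94.5% (86.7 to 97.8%) or more in each pool.

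The DxB female pool had the lowest paternal share of the 4 in the coding sequence and in intron 3. Its maternal reads were scattered, with 22 of 651 reads maternal over the coding SNPs (3.38%) and 13 of 421 in intron 3 (3.09%), against 3 of 1492 and 0 of 1361 in BxD females. Sgce and Meg3 were also least pure in this pool. Sgce, a paternally expressed sarcoglycan gene, was 97.3% paternal there and 99.4 to 99.6% in the other pools. The maternally expressed noncoding RNA Meg3 had 2.33% paternal intronic reads there and at most 0.451% in the others. Trappc9 was 89.5% paternal there, within the 86.5 to 91.9% of the others. Whether a common source lies behind these reads was not tested.

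Intron 3 held most of the intronic reads, 3446 of 4028 (85.6%), at 33 of the 146 counted SNPs. Its share was 100% paternal in both BxD pools (0 maternal of 1361 and of 1376 reads, which allows a maternal share of up to 0.220% and 0.218%), 96.9% (94.8 to 98.2%) in DxB females and 99.7% (98.1 to 99.9%) in DxB males. At its most-read SNP, 12833494, B and D reads were 0 and 132 in BxD females, 0 and 144 in BxD males, 32 and 2 in DxB females and 22 and 0 in DxB males. In the annotation, 9 of the 33 SNPs, with 32.3% of the reads of the intron, lay in an exon of another Plagl1 transcript, so that intronic here means outside the exons the authors used and not always unspliced RNA. Of 27 annotated Plagl1 transcripts, 4 are classed as retained introns, and Plagl1-024 starts inside intron 3 at 12833271.

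Introns 1 and 2 were read more thinly and were paternal too. Intron 1 had 46 paternal and 1 maternal read over all pools, 97.9% paternal (88.9 to 99.6%), and intron 2 had 148 and 1, 99.3% (96.3 to 99.9%). Together with the exons, introns 1 to 3 gave paternal shares of 96.6% or more wherever a pool had over 10 reads, apart from the 3′ UTR in the BxD pools and the 94.5% of exon 5 in DxB females.

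Introns 4 and 5 departed from this in the BxD pools. In intron 4 the BxD female pool had 16 maternal and 78 paternal reads, 83.0% paternal (74.1 to 89.2%). The BxD male pool had 64 and 103, 61.7% (54.1 to 68.7%). Both DxB pools had 0 maternal and 36 paternal reads, which allows a maternal share of up to 8.33% in each. Intron 5 had the same order, with 3 maternal of 12 reads in BxD females, 10 of 24 in BxD males, 0 of 5 in DxB females and 0 of 12 in DxB males.

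The maternal reads were concentrated just before exon 5. In the last 2000 bp of intron 4 (chr10:12842662-12844661) the BxD female pool had 15 maternal and 17 paternal reads and the BxD male pool 60 and 35, so that the paternal share was 53.1% (36.5 to 69.1%) and 36.8% (27.8 to 46.9%). In the DxB pools the same 14 SNPs had 0 maternal with 20 and 21 paternal reads. In the part of intron 4 before it, 38 SNPs gave 1 maternal and 61 paternal reads in BxD females, 4 and 68 in BxD males, and 0 with 16 and 15 in the DxB pools. At SNP 12844546, 116 bp before exon 5, B and D reads were 3 and 2 in BxD females, 17 and 7 in BxD males, 4 and 0 in DxB females and 2 and 0 in DxB males. With the pools of a cross added, B was the more frequent base of the stretch in both crosses, though not in BxD females alone. The same held for each cross at the 3′ UTR SNPs that did not follow the father. In this stretch of intron 4 the maternal reads occurred only where the mother was B. The last part of the intron was delimited after its values were seen, and these shares carry no test. A further transcript, Plagl1-201, starts at 12844665, just after this stretch.

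**Figure D3:**
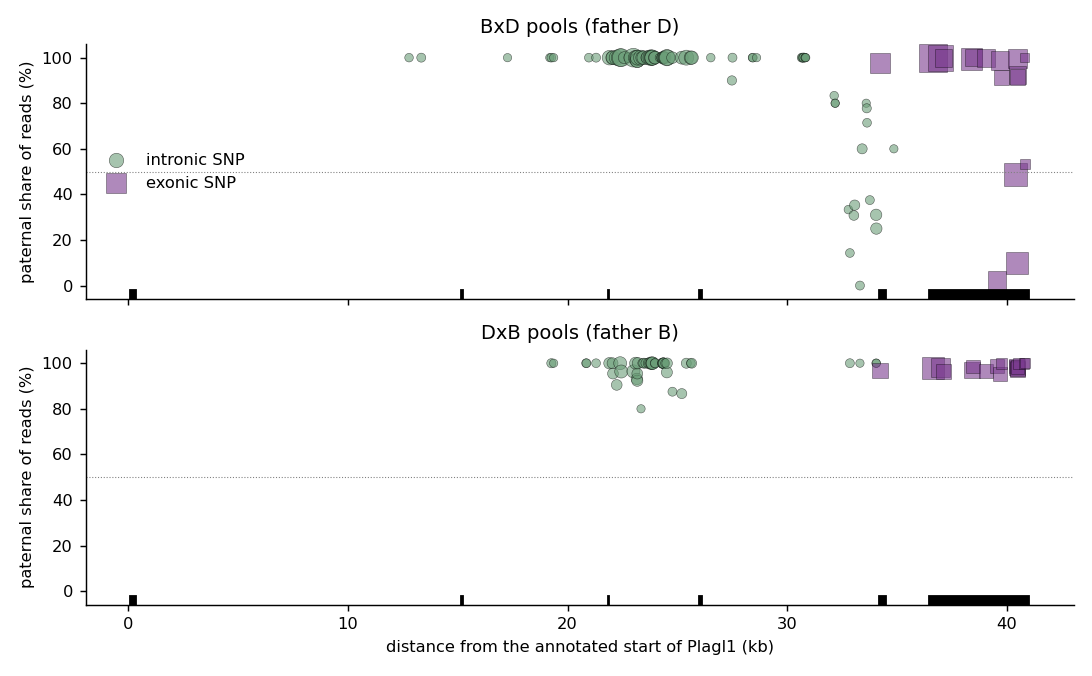
Paternal share of reads (y axis, %) at each informative Plagl1 SNP with at least 5 reads in the cross, against its distance from the annotated start of the gene (x axis, kb), in the BxD pools (top) and the DxB pools (bottom). Circles are intronic SNPs, squares exonic SNPs, their area grows with the number of reads, and black blocks on the axis are the 6 exons. In the BxD pools the SNPs just before and after exon 5 and 4 SNPs near the end of exon 6 (at 2.42%, 9.90%, 48.7% and, with 15 reads, 53.3%) fall far below 100%, while no SNP of the DxB pools falls below 80%.

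**Figure D4:**
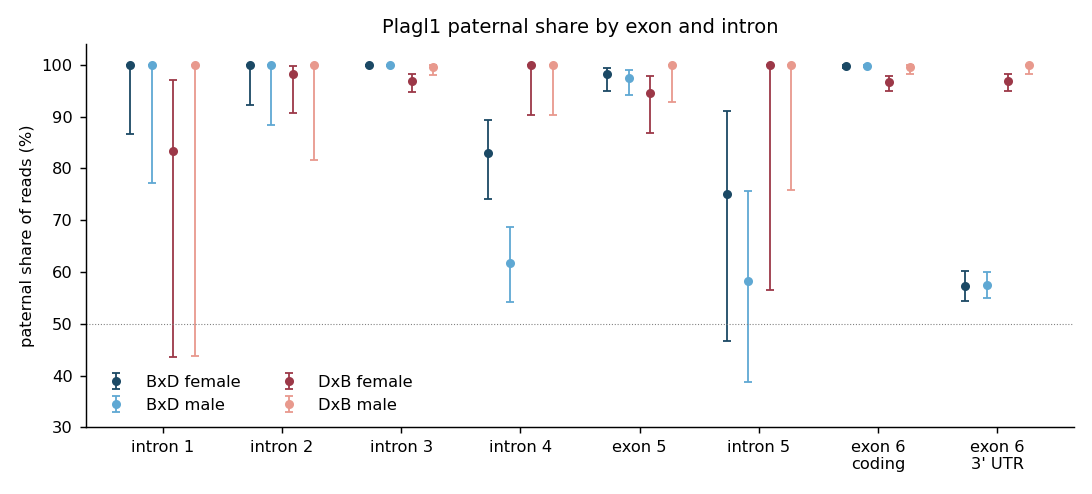
Paternal share of reads (y axis, %, from 30) by exon and intron of Plagl1 (x axis, 5′ to 3′), with 1 point per pool and 95% Wilson intervals. The BxD pools fall to 83.0% and 61.7% in intron 4 and to 57.4% and 57.5% in the 3′ UTR, and both DxB pools stay at 96.9% or above in each of these.

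Counted over SNPs rather than reads, 14 of the 19 informative exonic SNPs had more paternal than maternal reads in both crosses. Of 119 intronic SNPs with reads in both crosses, 101 did so, and of the 40 intronic SNPs with at least 20 reads, 37. The 3 exceptions among these 40 were all in intron 4 and lay at most 1093 bp before exon 5.

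Tested over the 8 allele libraries with edgeR (maternal against paternal, quasi-likelihood test, Benjamini-Hochberg adjustment), Plagl1 passed the threshold of 0.05 with its introns and not with its exons. Its exonic log2 maternal to paternal ratio was -2.71 (SE 1.19, edgeR adjusted p = 0.9999), and 4 of 8042 genes (0.0497%) were called, with 48 at an unadjusted p under 0.05. With the pool as a block none was called (31 at an unadjusted p under 0.05). The intronic ratio was -5.19 (SE 0.720, edgeR adjusted p = 0.00745), and 3 of 9569 genes (0.0314%) were called, Meg3, Plagl1 and Snrpn. The intronic call remained with the pool as a block (edgeR adjusted p = 0.0238) and with DESeq2 (adjusted p = 2.12e-04). It was lost when genes with under 10 reads were dropped before the fit (edgeR adjusted p = 0.199). Without the 3 SNPs the exonic ratio was -6.39, a description with no test, since SNPs picked for a low paternal share leave a more paternal ratio when removed. With coding and 5′ UTR SNPs alone, a choice made after the values were seen, it was -6.76 (SE 0.854, edgeR adjusted p = 0.0617). With the pools identified by their labels, the ratios were 0.30 and 0.23, because 1 pool of each cross then changed place.

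**Figure D5:**
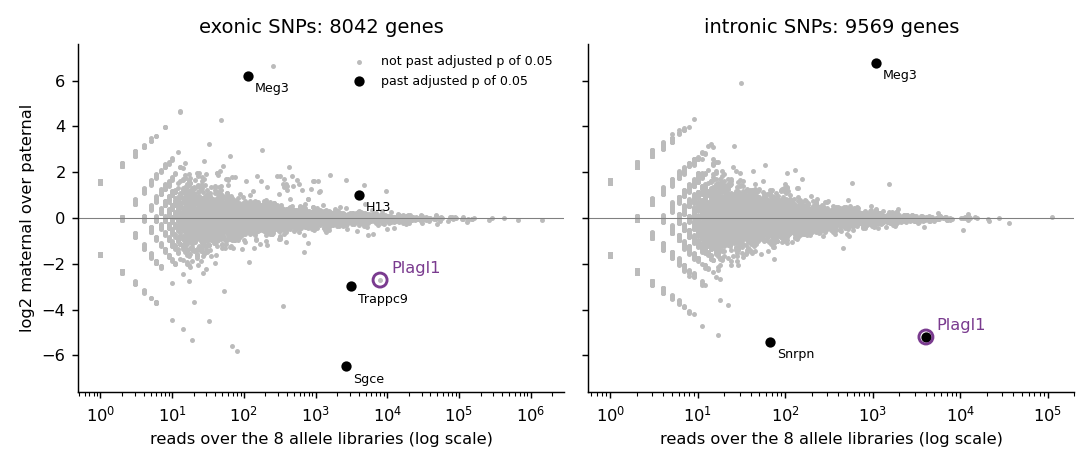
The log2 maternal over paternal ratio (y axis) of every gene tested, against its reads over the 8 allele libraries (x axis, log scale), for exonic SNPs (left, 8042 genes) and intronic SNPs (right, 9569 genes). Black points passed an edgeR adjusted p of 0.05 and Plagl1 is circled. Plagl1 stood at -2.71 among the genes not called with exonic SNPs and at -5.19 among the 3 called with intronic SNPs.

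The strain ratio of Plagl1 depended on the fit. The exonic log2 D to B ratio was 0.80 (SE 1.12, edgeR adjusted p = 0.712), in a test that called 1459 of 8042 genes (18.1%), and it turned to -0.64 with the pool as a block and to -0.072 without the BxD male pool. The intronic ratio was 1.46 (SE 0.166, edgeR adjusted p = 1.44e-16), in a test that called 1122 of 9569 genes (11.7%). That call ended with DESeq2 (adjusted p = 0.771), with parent as a covariate (edgeR adjusted p = 0.243), without genes of under 10 reads (0.473) and without the BxD male pool (ratio 0.37, edgeR adjusted p = 0.343). The small standard error stands beside D libraries of 1 to 1535 intronic reads.

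Plagl1 was read more deeply in the BxD pools, where the expressed allele was D. Its counted exonic reads were 650.1 and 787 RPM in BxD females and males, against 283 and 192 in DxB females and males. These totals include the maternal reads, which were 114.4 and 145.5 RPM in the BxD pools. Paternal reads alone were 536 and 641 RPM in BxD females and males, against 274 and 191 in DxB females and males. Intronic reads were 2208 and 2717 RPM (of counted intronic reads) in the BxD pools and 940 and 848 in the DxB pools. Summed over both alleles, the log2 ratio of BxD to DxB was 1.52 in exons (SE 0.242, edgeR adjusted p = 0.934), where edgeR called 0 of 8042 genes (0%, with 307 at an unadjusted p under 0.05). With sex as a covariate the exonic adjusted p was 2.36e-04 (edgeR, 61 genes called). In introns the ratio was 1.45 (SE 0.205, edgeR adjusted p = 4.17e-09), with 18 of 9569 genes called (0.188%), and the call remained with each pool left out. This comparison was added after the values were seen. Since BxD mice express the D allele and DxB mice the B allele, cross and expressed strain cannot be told apart, and neither can more RNA per cell and more of the cells that express the gene. Adipocyte marker reads (Cidec and Lep) were 4710 and 5060 RPM in the BxD pools and 9127 and 6372 in the DxB pools, and Pdgfra reads were 761 RPM in BxD females and 340.1 to 362 in the other pools. Their part in the difference was not tested.

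Plagl1 had a larger share of reads at SNPs listed as intronic than most genes, although some of these SNPs lay in exons of other Plagl1 transcripts. Its counted SNPs were 146 intronic and 16 exonic. Of its counted reads 33.7% were intronic, against a median of 13.4% over 5903 genes with at least 100 counted reads, and 74.9% of those genes had a lower share.

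Neighbouring genes had parental shares nearer to 50%. Of the 4 nearest genes with SNPs on each side, 5 had over 10 counted exonic reads, and their paternal shares over all pools were 49.4% for Utrn, 48.6% for Sf3b5, 46.0% for Ltv1, 45.3% for Phactr2 and 48.4% for Fuca2. None of them passed the threshold in exons (edgeR adjusted p = 0.9999 for each). Sf3b5, a splicing factor subunit gene whose nearest SNP was 83134 bp from those of Plagl1, had paternal shares of 46.5%, 46.1%, 51.4% and 50.5% in the 4 pools. Ltv1, a ribosome biogenesis gene 47602 bp away, had 57.1% and 60.2% in the BxD pools and 30.9% and 30.5% in the DxB pools, so that its D allele was the higher one in both crosses. Closest of all was Fam164b, 18618 bp away, with 10 maternal and 6 paternal intronic reads.

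Plagl1 is known to regulate a network of imprinted growth genes, and 15 of these were looked up. In these counts 8 of 15 had at least 10 exonic reads and 7 had none. Their median paternal share was 69.8%, against 49.8% over 6977 genes with at least 10 exonic reads. The list holds genes expressed from either parent, so this median does not measure a common direction. Of the 8 network genes, 1 was called paternal, Sgce (28 maternal and 2592 paternal reads, edgeR adjusted p = 0.0236), and 1 maternal, Meg3 (112 and 1, edgeR adjusted p = 0.0421). Over all genes tested in exons, 4 of 8042 (0.0497%) were called by parent. Ndn, a paternally expressed gene of the MAGE family, had 22 maternal and 334 paternal reads, and Rasgrf1, a guanine nucleotide exchange factor gene, 0 and 19, and neither passed. Dlk1, an inhibitor of fat cell differentiation, had 4 maternal and 23 paternal reads. Igf2, a fetal growth factor gene, had 108 and 69 at 1 SNP, with paternal shares of 16.7% and 14.6% in the BxD and 94.4% and 80.0% in the DxB pools. Igf2r, the receptor that clears that factor, had only B reads in every pool (155 maternal and 156 paternal), so its reads followed the strain and not the parent. The paper reports that Sanger sequencing of D mice verified no B-only SNP that it checked, and Igf2r was not among them. It is kept in the median above. Gatm, a creatine synthesis gene, had 204 and 243. Its paternal shares were 74.7% and 72.4% in the BxD and 32.9% and 22.2% in the DxB pools, so its D allele was the higher one in both crosses.

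Over the 3054 genes with at least 100 exonic reads in every pool, likeness to Plagl1 was measured as the distance between the 4 paternal shares in percentage points. Trappc9, which encodes a vesicle trafficking subunit, was nearest (18.9 points), with shares of 91.9%, 87.8%, 89.5% and 86.5% in BxD females, BxD males, DxB females and DxB males. Sgce followed (24.8 points). The next, Tec, Ubxn10 and Prdm16, were 67.2, 67.6 and 69.0 points away, with paternal shares of 56.6%, 53.5% and 57.6% over all pools. This order rested on the 3 SNPs with few paternal reads in the BxD pools. Without them Sgce was nearest at 1.08 points and Trappc9 next at 20.1. With all counted SNPs, 3 genes, Plagl1 among them, had at least 75% paternal reads in all 4 pools. This floor lies below the lowest Plagl1 share of 81.5%, so Plagl1 had to be among them.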

How the data were processed

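RNA from gonadal fat was pooled by cross and sex, 1 library a pool, and poly(A) RNA was sequenced. The deposited values are raw counts of reads per SNP and allele. The authors aligned mates as single reads to mm9 with mrsFAST (up to 3 mismatches), aligned the remainder with TopHat and counted B and D bases at known SNPs; the methods mask D variants, although a supplement reads otherwise. The submitters' processing notes name CASAVA and TopHat 1. Strand was not used.

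Here unlisted SNPs counted as 0, same-base SNPs were removed, the first of SNPs within 18 bp was kept, and alleles were summed per gene. Pool identity came from file names. The 8 allele libraries were tested with edgeR 4.0.16 (TMM, quasi-likelihood) in R 4.3.3, checked on simulated data. Both alleles of a pool come from the same animals, so the pool was also fitted as a block. DESeq2 1.42.0 was an alternative. With 1 library a pool, no p-value covers the spread between animals. The edgeR fits without the block treated the 8 allele libraries as independent. Shares have 95% Wilson intervals, and a count of 0 allows 3 counts. Genome sequence was NCBIM37 (mm9), annotated by GENCODE M1. Named genes were Plagl1, the imprinted gene network list, the 4 nearest genes a side and the 5 genes nearest in paternal share. Depth per pool is given with the results. The members and lists were chosen with earlier results of these data known.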

Additional observations from a re-analysis of the deposited data

Results flagged for a closer look

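At 2 Plagl1 SNPs of the 3′ UTR the parental difference ran in opposite directions in the 2 crosses, with more maternal than paternal reads in both BxD pools and more paternal than maternal reads in both DxB pools. The paternal share in the BxD pools was 2.42% at SNP 12850050 and 9.90% at SNP 12850954, and in the DxB pools it was 98.8% and 98.5%. The difference between the crosses was not tested.

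Exonic SNPs that list 1 base for both strains held a listed total of 1386 for Plagl1, B plus D over all pools. This total was outside the reads used for the parental comparisons. These were 2 SNPs, 12850880 and 12850953, with equal numbers for both alleles in every pool. The total adds the B and the D number of each SNP, so it cannot be taken as a number of separate reads.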

How the results depend on the processing

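The paternal direction of Plagl1 rested on the pool identity. By label, mean paternal shares were 51.0% in exons and 51.5% in introns, the log2 maternal to paternal ratios were 0.30 and 0.23, and edgeR called 0 genes in exons and 0 in introns (36 and 86 at an unadjusted p under 0.05). The intronic minus exonic share was 4.82 to 10.3 with 1 pool left out, 1.71 with SNPs more than 50 bp apart and 0.486 by label. Other settings were added after seeing the data. In these it was -0.870 without the 3 SNPs, -1.03 with coding and 5′ UTR SNPs alone and -1.06 without the repeated stretch. The DxB minus BxD share was -1.26, -1.63 and -1.67 in the same order. It was 8.46 with same-base SNPs kept and 4.67 with SNPs more than 50 bp apart. The male minus female share ranged from -8 to 10.2 with 1 pool left out, and fell below 0 without the BxD female or the DxB male pool. Genes called by parent in exons numbered 8 with DESeq2, 8 with strain as a covariate, 2 with coding and 5′ UTR SNPs alone, 0 with the pool as a replicate block and 0 to 1 with 1 pool left out (edgeR, 0 without the BxD male and 0 without the DxB male pool, with 40 and 38 at an unadjusted p under 0.05, and 31 with the block), against 4. In introns 10 were called with strain as a covariate, against 3. The intronic parental ratio was -5.20 and past no threshold without genes of under 10 reads, and -4.84 to -6.03 with 1 pool left out. The exonic ratio was -3.98 with the block and -2.51 to -3.11 with 1 pool left out. The exonic strain ratio was -0.64 with the block, -1.08 with parent as a covariate and -0.072 to 1.48 with 1 pool left out. The intronic strain ratio, past the threshold at 1.46, was below it at 1.42 with DESeq2, 1.45 without genes of under 10 reads, 0.41 with parent as a covariate and 1.39 with all SNPs, and ranged from 0.37 to 2.41 with 1 pool left out. The exonic BxD to DxB ratio of reads, 1.53 with sex as a covariate, passed the threshold there alone. The spacing of more than 50 bp left out SNPs 12850904 and 12850954, which are among the 3 SNPs. What else lay behind these changes was not tested. With 4 pools of 1 library, no exact test of a share could pass the threshold.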

Other observations

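In introns, other genes of the imprinted network gave further parental values. Grb10, an adaptor gene of insulin signalling, had 31 maternal and 0 paternal intronic reads in all 4 pools together (edgeR adjusted p = 0.296). Meg3 had 1066 maternal and 9 paternal intronic reads (edgeR adjusted p = 1.44e-04). Rasgrf1 had 14 maternal and 23 paternal intronic reads, beside 0 and 19 exonic ones. Trappc9 was 89.1% paternal over its exonic reads and 70.6% paternal over its intronic reads.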
